A study of Mus musculus with 47 samples.

Results

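Itga2b, Gfi1b, Nfe2, Hbb-b1 and Hbb-b2 are genes best known from megakaryocytes and red cells, and their levels were followed here in mouse T-cell precursors that had lost Bcl11b. They were taken by symbol, as 5 of the 17754 genes of the deposited expression table, and all 5 were present as 1 entry each across the 47 labelled libraries. The choice was made with earlier results of these data known. Counts of the 5 genes set beside the share of all genes are therefore descriptions. The genes were named for their usual lineage and not for the cells: no library was sorted as a megakaryocyte or a red cell precursor.

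T-cell precursors pass through ordered CD4-CD8- double negative stages, and cells at the early stage, DN2a, still carry high Kit and transcripts shared with multipotent and non-T progenitors. Bcl11b is a zinc finger factor switched on between DN2a and DN2b, when cells commit to the T lineage. Itga2b encodes integrin alpha IIb (CD41), which pairs with integrin beta 3 as the platelet fibrinogen receptor and is also found on early blood progenitors. Gfi1b is a SNAG domain repressor needed for both megakaryocytes and red cells, and Nfe2 encodes the large subunit of NF-E2, a basic leucine zipper factor needed for platelet release and active at globin genes. Hbb-b1 and Hbb-b2 are the adult beta globin genes.

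The main groups came from fetal liver precursors of embryonic day 13.5. Knockout cells were Bcl11b fl/fl, some with ROSA26R-YFP, and control cells were C57BL/6, some with ROSA26R-YFP. Cells of both genotypes received a Cre retrovirus, were sorted again and were grown on OP9-DL1 or OP9-DL4, bone marrow stroma that displays a Notch ligand, with Flt3L and IL-7. There were 14 knockout libraries (8 on OP9-DL1, 6 on OP9-DL4) and 11 control libraries (8 and 3). Of these, 4 and 3 had reduced IL-7, a setting the submitters gave up for its effect on viable recovery and RNA quality. The titles of these 3 controls do not name Cre, while those of the other controls do. Normal C57BL/6 fetal liver cells, never given Cre and grown on OP9-DL1, were taken as 4 DN2a and 2 DN2b libraries, and 4 more such libraries were treated with GSI, a blocker of the gamma-secretase cleavage that activates Notch, at 1 µM for the last 12 h. The other 12 libraries were thymic, bone marrow or vector samples, in groups of 1 or 2.

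Genotype and sorted stage moved together. By the general protocol, knockout cells were sorted with the DN2a phenotype (high Kit) and controls with the DN2b phenotype (intermediate Kit). By their titles, 8 knockout libraries were DN2a, 5 DN2 and 1 DN2b, while 8 controls were DN2b and 3 DN2. Over all 25 libraries the effect of genotype therefore cannot be told apart from the stage sorted. Of the 9 date-matched pairs, 3 have DN2 in both titles and 1 has DN2b in both, although the stage field of that last knockout library says DN2. The 3 DN2 pairs appear from their titles to be 1 knockout and 1 control culture harvested on several days. The labels do not say whether other libraries came from separate cultures, so p-values measure the spread between libraries.

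Values are FPKM, which is scaled by gene length and depth, after a batch adjustment by the authors, with 0.1 as the lowest value in the table. Column totals ran from 581205 to 1005744 FPKM and 11756 to 13370 genes reached 1 FPKM per library; read depth was not given in the sources used here, so no counting interval could be set. In 41 of 1081 library pairs at least 366 values above 0.1 were identical (at most 3 in any other pair). No value of the 5 genes above 0.1 was repeated in this way. Differences below are log2(FPKM + 1) and understate the change of low genes; "called" means a limma adjusted p under 0.05 over all genes tested. Bcl11b itself was 24.0 ± 7.06 FPKM (SD, n = 14) in knockouts and 56.4 ± 19.8 (n = 11) in controls. The ranges, 8.77 to 37.9 and 16.9 to 84.4 FPKM, overlapped through OP9-DL1 control replicate 1 (16.9 FPKM), which lay below its date-matched knockout library (23.6), and Bcl11b was lower in the knockout in the other 8 of 9 date pairs. Without that control Itga2b, Gfi1b and Hbb-b2 gave differences between genotypes of 3.75, 1.45 and 1.38, each still called. T-lineage genes were present in every group.

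Of the 5 genes, Itga2b separated knockout from control most widely, Gfi1b and Hbb-b2 were also higher in knockout cells, and Nfe2 and Hbb-b1 did not pass the test. The comparison asks how loss of Bcl11b changes T-cell precursors, with stroma and IL-7 as covariates. 3 of the 5 genes were called, all higher, against 16.9% of the 12678 genes tested in either direction, 9.8% called higher and 7.1% called lower. The median difference of the 5 genes was 1.34 and that of all genes 0.04. With the 9 date pairs as a replicate block, 1282 genes were called in place of 2142, and the 3 genes stayed called (Itga2b 3.61, Gfi1b 1.32, and Hbb-b2 1.38 with adjusted p = 0.0486).

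**Figure D1:**
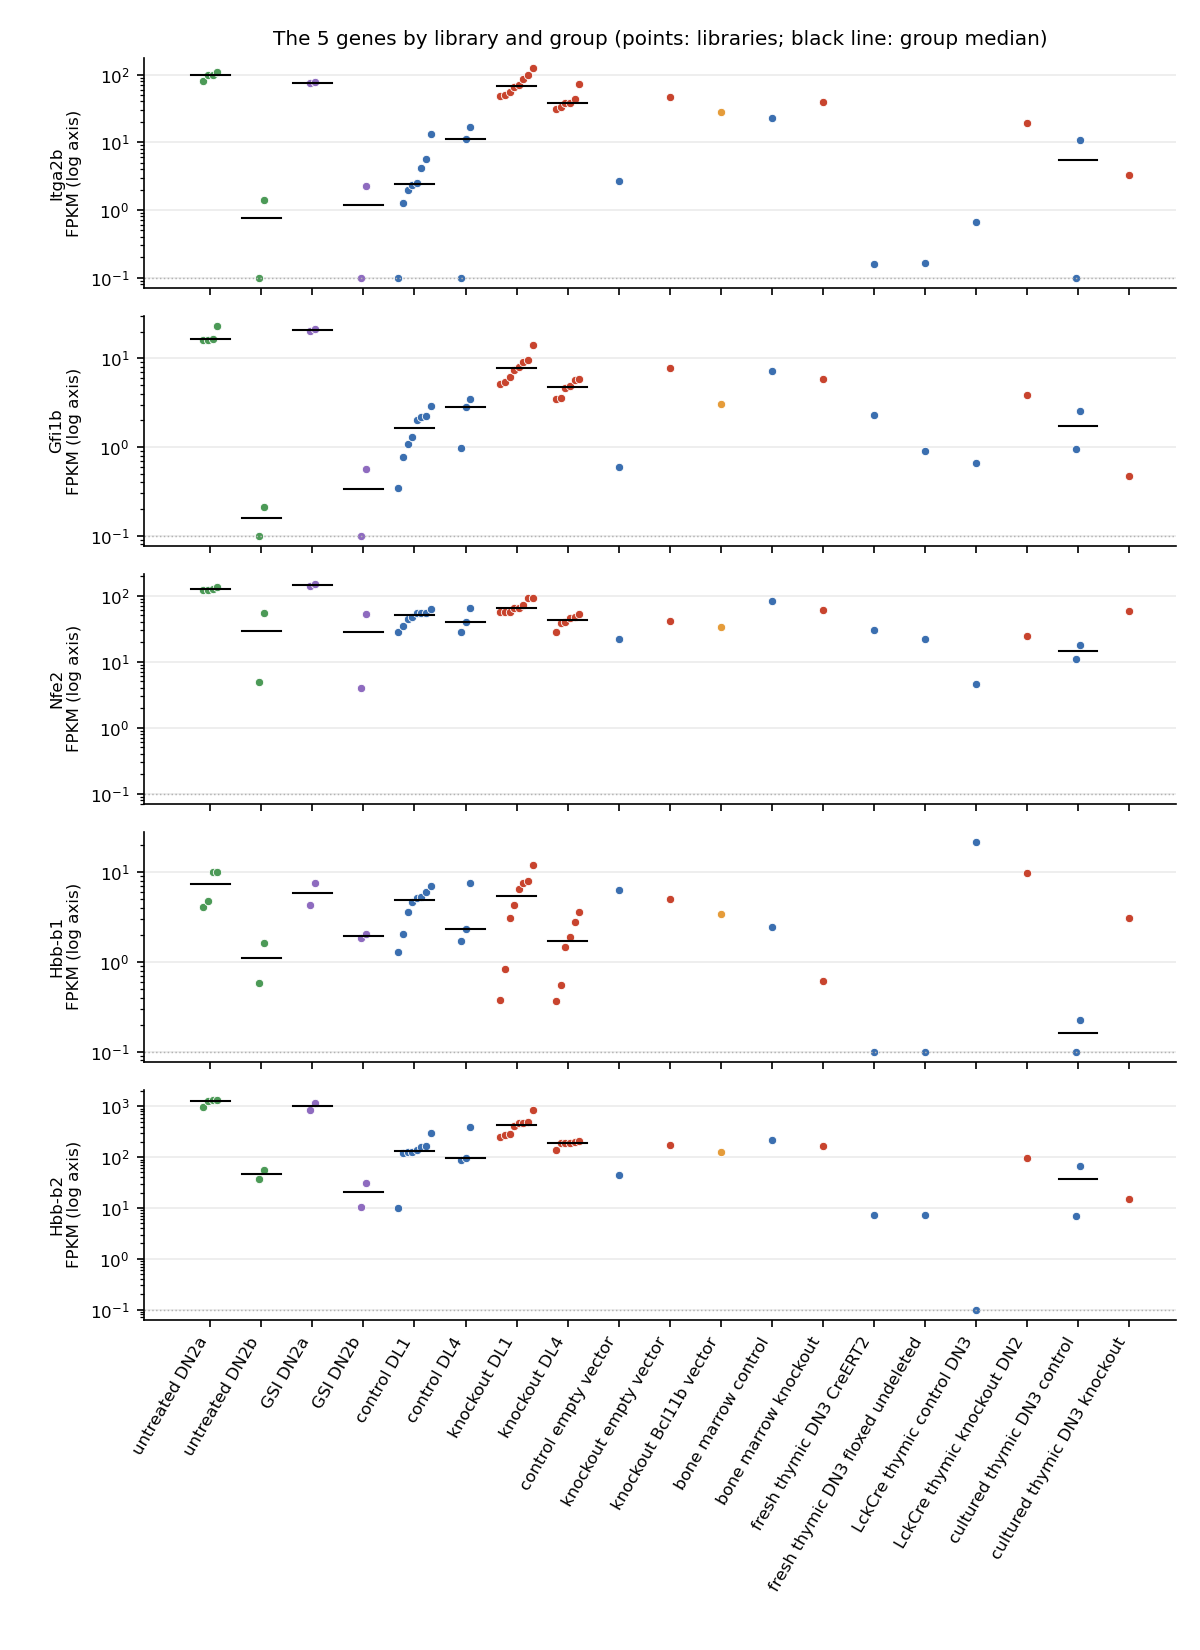
FPKM of each gene (log axes) in the 47 libraries, by group; points are libraries, black lines are group medians and the dotted line is the lowest value of the table, 0.1. Itga2b is at 30.6 FPKM or more in every fetal liver knockout library and at most 16.6 in the controls, while the Nfe2 and Hbb-b1 points of knockout and control overlap.

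Itga2b stood at 48.5 FPKM in the lowest, 67.3 at the median and 124 in the highest of the 8 knockout libraries on OP9-DL1. On OP9-DL4 the 6 knockout libraries ran from 30.6 to 73.2 FPKM, with a median of 38.2. In the 8 OP9-DL1 controls it ran from 0.1 to 13.1 FPKM (median 2.40), and the 3 OP9-DL4 controls were at 0.1, 16.6 and 11.3 FPKM. No control reached any knockout library, a separation that 1.21% of all genes showed in the higher direction. The means were 61.0 ± 27.2 FPKM (SD, n = 14) and 5.37 ± 5.70 (n = 11), an 11.4-fold ratio. On the log2(FPKM + 1) scale the difference was 3.72 (SE 0.34, 95% interval 3.01 to 4.43, limma adjusted p = 1.77e-08). All 9 pairs of libraries that shared a title date, stroma and IL-7 had more Itga2b in the knockout, by 0.93 to 6.08. In the 3 DN2-titled pairs, knockout and control were at 98.4 and 13.1, 50.7 and 5.64, and 69.5 and 4.17 FPKM. Itga2b thus stayed higher in knockout libraries titled with the same stage (3.18, limma adjusted p = 0.0259). These pairs appear to be repeat harvests of a single culture per genotype, so this p measures the spread between harvests and not between cultures. In the pair titled DN2b on both sides they were at 65.2 and 1.25 FPKM. Within the earliest, middle and latest title years the difference was 5.20, 1.29 and 3.98, each called.

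Gfi1b was low in all of these cells but higher in the knockout. It ran from 5.10 to 14.1 FPKM (median 7.68) in the 8 OP9-DL1 knockout libraries and from 3.45 to 5.83 (median 4.73) in the 6 on OP9-DL4. Controls ran from 0.341 to 2.91 FPKM (median 1.65) on OP9-DL1 and were at 2.79, 3.49 and 0.977 on OP9-DL4. The genotypes overlapped by 1 library on each side, an OP9-DL4 control at 3.49 and an OP9-DL4 knockout at 3.45 FPKM. The difference was 1.48 (SE 0.20, adjusted p = 4.49e-06), the ratio of means 3.63-fold, and 9 of 9 date pairs were higher in the knockout. Gfi1b stayed called on OP9-DL1 alone (1.78) and with standard IL-7 alone (1.57). It was not called on OP9-DL4 alone (0.75, adjusted p = 0.174), with reduced IL-7 alone (1.03, 0.124), or in the 3 DN2-titled pairs 1.54 (0.0826). By title year it was 1.15 (0.0708), 0.83 (0.242) and 1.84 (0.000186), the last called.

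Nfe2 was abundant in both genotypes and its difference did not pass the test. Knockout libraries ran from 27.9 to 92.1 FPKM (median 56.6) and controls from 28.0 to 65.7 (median 47.9), with wide overlap. The difference was 0.35 (SE 0.15, 95% interval 0.04 to 0.65, adjusted p = 0.12), and 7 of 9 date pairs were higher in the knockout. Without OP9-DL4 control replicate 2, the control highest in Nfe2, Itga2b and Hbb-b2, the Nfe2 difference was 0.46 and was called (adjusted p = 0.0224).

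The 250 bases before the RefSeq start of Itga2b and Gfi1b are shown because these genes gave the clearest difference. GATA, NF-E2, CACCC and Gfi sites are among the textbook elements of megakaryocyte and erythroid promoters, and were searched for. Both lie on the minus strand of GRCm38.p6, Itga2b at chr11:102469884-102470133 and Gfi1b at chr2:28621983-28622232, printed 5′ to 3′ on the gene's strand and credited to RefSeq. Capitals mark matches, on either strand, to the GATA motifs AGATAA or TGATAA, the NF-E2 motif TGAGTCA, the Kruppel-like factor motif CACCC, the Gfi core AAATCA, the CCAAT box or the TATAAA box.
Itga2b: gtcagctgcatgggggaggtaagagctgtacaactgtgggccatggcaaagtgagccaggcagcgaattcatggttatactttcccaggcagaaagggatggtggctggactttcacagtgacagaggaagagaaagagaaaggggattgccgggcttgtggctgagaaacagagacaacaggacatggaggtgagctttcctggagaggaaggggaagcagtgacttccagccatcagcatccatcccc
Gfi1b: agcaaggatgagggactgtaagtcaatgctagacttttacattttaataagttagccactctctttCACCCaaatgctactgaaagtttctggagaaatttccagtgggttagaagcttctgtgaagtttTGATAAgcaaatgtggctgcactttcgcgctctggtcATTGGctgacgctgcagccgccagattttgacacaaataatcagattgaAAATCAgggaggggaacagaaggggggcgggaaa
The Itga2b window held none of the 7 motifs, and other motifs of these lineages were not searched for. The Gfi1b window held CACCC at 184 to 180 bases before the start, TGATAA at 120 to 115, CCAAT on the other strand at 83 to 79 and AAATCA at 34 to 29. Of 32851 promoters of the same length, 52% held CACCC, 33.8% CCAAT, 12.4% AAATCA, 7.94% TGATAA, 9.99% AGATAA, 12.4% TATAAA and 4.46% TGAGTCA. A match is a run of letters and not a measured binding site.

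Hbb-b2 was the most abundant of the 5 genes and was higher in knockout cells. It ran from 247 to 855 FPKM (median 439.8) in the 8 OP9-DL1 knockout libraries and from 136 to 211 (median 192) in the 6 on OP9-DL4. Controls on OP9-DL1 ran from 9.94 to 297 FPKM (median 134), and those on OP9-DL4 were at 89.5, 389.9 and 97.7. On OP9-DL1, 3 knockout libraries lay below the highest control, and on OP9-DL4 a control was the highest of all 9. The difference was 1.34 (SE 0.39, adjusted p = 0.0167), the ratio of means was 2.11-fold, and 8 of 9 date pairs were higher in the knockout. The call was lost with standard IL-7 only (1.5, adjusted p = 0.0617), on OP9-DL4 alone (0.32, 0.755), in the 3 DN2-titled pairs (1.43, 0.282) and with libraries of 1 culture averaged (1.29, 0.0569). By title year the difference was 0.89 (0.145), -0.20 (0.876) and 2.13 (0.0245), so the sign turned in the middle year. In the pair titled DN2b on both sides Hbb-b2 was at 273 FPKM in the knockout and 9.94, its lowest control value, in the control.

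Hbb-b1 was listed far below Hbb-b2 and did not differ by the test. Knockout libraries ran from 0.365 to 12.0 FPKM (median 2.94) and controls from 1.28 to 7.69 (median 4.71). The difference was -0.25 (SE 0.33, 95% interval -0.94 to 0.43, adjusted p = 0.684), and 3 of 9 date pairs were higher in the knockout. Hbb-b1 made up between 0.133% and 34.5% of the FPKM of both beta globin genes together in the 25 fetal liver knockout and control libraries.

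The split between the adult beta globin genes is uncertain. The Ensembl gene of the Hbb-b1 entry (ENSMUSG00000052305) is named Hbb-bs in the GENCODE annotation used here, and that of Hbb-b2 (ENSMUSG00000073940) is named Hbb-bt. Their coding sequences were the same at 443 of 444 bases (99.8%), with an identical run of 416 bases, so reads could be assigned to either. Summing Hbb-b1 and Hbb-b2 gave a knockout difference of 1.27 (SE 0.36, adjusted p = 0.0131), close to that of Hbb-b2 alone. The embryonic gene Hbb-y was less alike (329 of 444 bases, 74.1%, against Hbb-bt), and was called higher in knockouts at a low level, 3.16 against 1.45 FPKM on average. The alpha globins Hba-a1 and Hba-a2 were identical to each other at 428 of 429 coding bases and were not called (-0.08 and -0.16). Over the 47 libraries Hba-a1 had 14 values at 0.1 and 6 above it repeated exactly between libraries, and Hba-a2 had 15 and 22, so these differences rest on few distinct values.

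**Figure D2:**
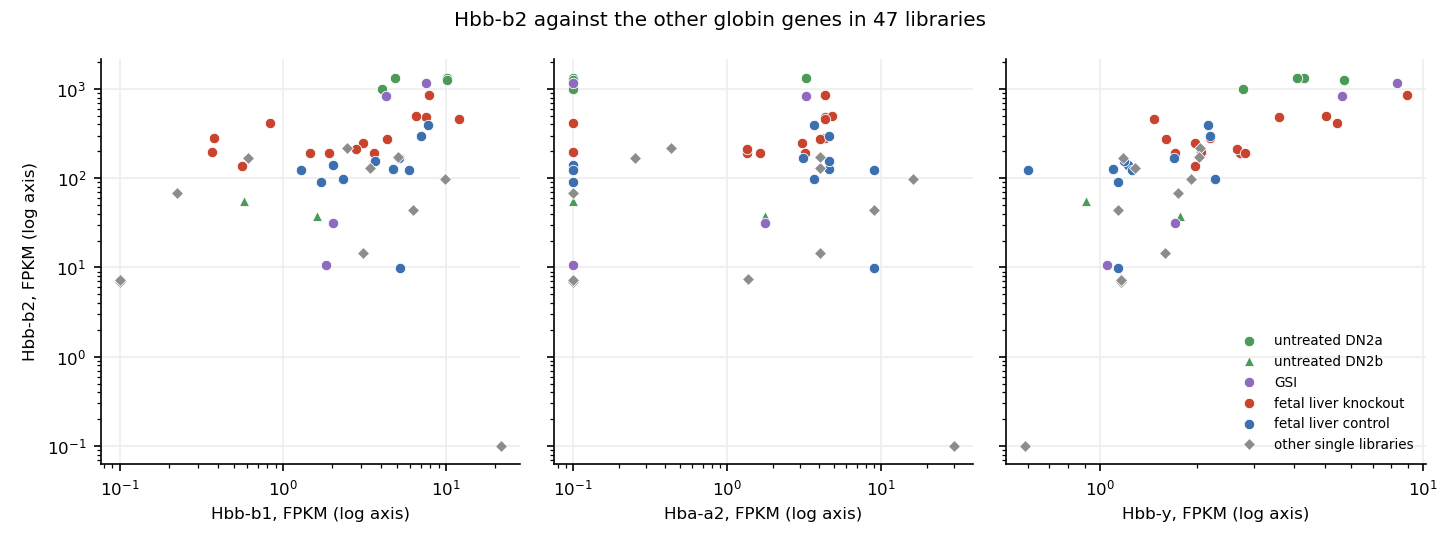
Hbb-b2 FPKM (vertical log axis) against Hbb-b1, Hba-a2 and Hbb-y FPKM (horizontal log axes); each point is 1 of the 47 libraries, coloured by group. Hbb-b2 is highest, up to 1331 FPKM, in DN2a libraries in which Hba-a2 is at most 3.26 FPKM, and the library at Hbb-b2 of 0.1 is the LckCre thymic control with Hbb-b1 at 21.7.

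The promoters of the adult beta globin pair are shown because, unlike the nearly identical coding sequences, they tell the genes apart. Whether they bear on the listed levels, whose split is uncertain, was not tested. Both lie on the minus strand of GRCm38.p6, Hbb-b1 (Hbb-bs) at chr7:103827929-103828178 and Hbb-b2 (Hbb-bt) at chr7:103813924-103814173, from RefSeq, with the same motifs in capitals.
Hbb-b1: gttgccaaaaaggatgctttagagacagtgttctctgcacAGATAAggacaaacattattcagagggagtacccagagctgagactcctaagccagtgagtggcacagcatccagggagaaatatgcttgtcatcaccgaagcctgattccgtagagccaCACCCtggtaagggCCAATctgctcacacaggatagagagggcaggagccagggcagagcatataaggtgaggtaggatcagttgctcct
Hbb-b2: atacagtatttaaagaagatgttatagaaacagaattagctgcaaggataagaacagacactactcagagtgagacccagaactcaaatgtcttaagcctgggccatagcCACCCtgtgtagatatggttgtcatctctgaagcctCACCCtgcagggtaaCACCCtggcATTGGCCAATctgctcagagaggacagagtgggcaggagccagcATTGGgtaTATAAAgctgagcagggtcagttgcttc
Hbb-b1 held AGATAA at 210 to 205 bases before the start, CACCC at 90 to 86 and CCAAT at 76 to 72. Hbb-b2 held CACCC at 140 to 136, 104 to 100 and 89 to 85, CCAAT at 75 to 71 and, on the other strand, at 80 to 76 and 36 to 32, and TATAAA at 28 to 23. No match overlapped another, although a pair of CCAAT matches on opposite strands in Hbb-b2 abut.

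**Figure D3:**
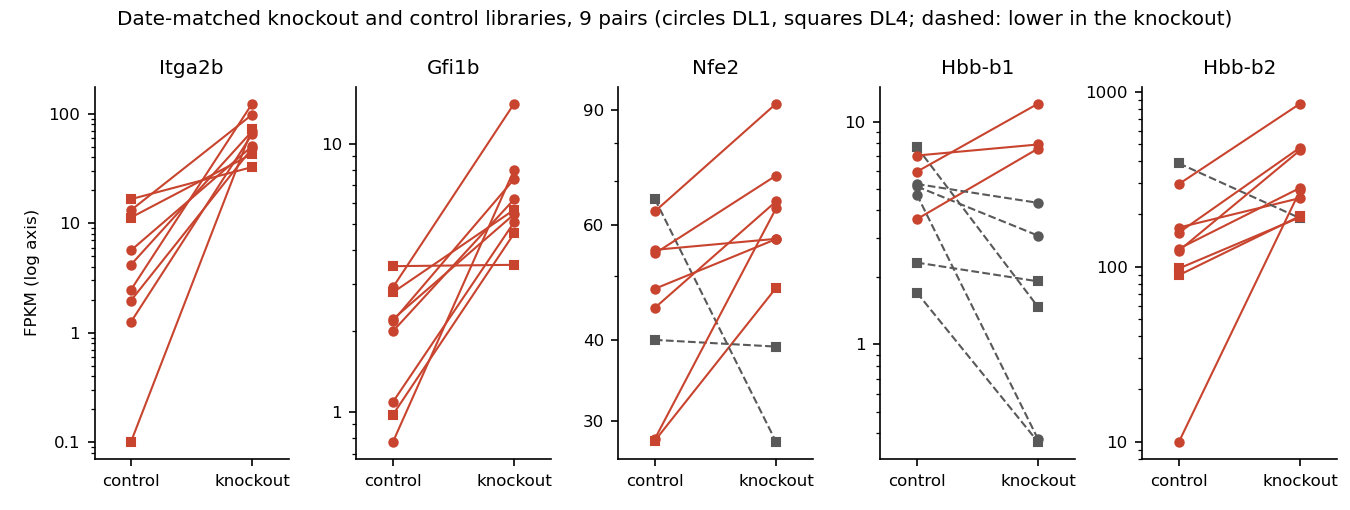
FPKM (log axes) of each gene in control and knockout for the 9 pairs of fetal liver libraries that share title date, stroma and IL-7; each line is a pair, circles are OP9-DL1, squares OP9-DL4, and dashed lines fall in the knockout. Itga2b and Gfi1b are higher in the knockout in 9 of 9 pairs, Hbb-b2 in 8, Nfe2 in 7 and Hbb-b1 in 3.

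Other genes of the same lineages went in both directions or did not pass the test. The share of all genes that were called in this comparison, 16.9% (9.8% higher, 7.1% lower), is the background for each list. Of 23 megakaryocyte and platelet genes listed, 15 were in the table (the others were not analysed here) and 9 passed the filter on low values: 2 rose in knockout cells, 1 fell and 6 did not pass the test (median 0.26). P2rx1, an ATP-gated channel of platelets and other blood cells, rose by 2.11 (adjusted p = 4.36e-05) and Cd9, a tetraspanin, by 1.45 (3.69e-08). F2rl3, the thrombin receptor PAR4, fell by 0.47 (0.0233). Itgb3, the partner chain of Itga2b (0.60), Vwf (0.23) and Plek (0.36) were not called. The platelet chemokines Pf4 and Ppbp, the glycoprotein Gp9 and the ADP receptor P2ry1 stayed under 1 FPKM in all 47 libraries.

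Among 12 tested transcription factors of the megakaryocyte and erythroid lineages, 3 rose, 1 fell and 8 did not pass (median 0.15). Gata1, the master factor of both lineages, fell by 1.69 (adjusted p = 3.83e-08), from 9.98 ± 3.00 FPKM in controls (SD, n = 11) to 2.40 ± 0.97 in knockouts (n = 14). Tal1 (0.93), Lyl1 (0.76) and Gata2 (0.55), factors of early blood progenitors, rose. Of 5 genes of the Gfi1b family and its cofactors, Gfi1, the paralog used in lymphoid and myeloid cells, fell by 0.69 (adjusted p = 0.000905), from 41.9 to 25.7 FPKM, and the other 4 did not pass. Of 7 tested relatives and partners of Nfe2, Nfe2l2 (NRF2) rose by 0.52 and 6 did not pass. Gata1 and Gfi1 thus moved opposite to Gfi1b, Tal1 and Gata2.

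Red cell genes were mostly too low to test. Of 24 erythroid genes listed, 13 were in the table, the rest were not analysed here, 6 passed the filter, and Hbb-y alone rose (median of the 6, 0.06), 1 of 6 being about the share called over all genes. Hemgn (0.20) was not called, Ank1 stayed under 1 FPKM everywhere, and Alas2, the red cell enzyme that starts heme synthesis, was at most 1.79 FPKM in any library. Among 12 heme and iron genes, 2 rose, 1 fell and 9 did not pass (median -0.13). Trf, transferrin, rose by 3.26 (adjusted p = 4.28e-06), from 12.7 to 93.0 FPKM. Fech, ferrochelatase, rose by 0.44, and Slc11a2, an iron importer, fell by 0.61. The transferrin receptor Tfrc was not called (0.59, adjusted p = 0.0526).

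**Figure D4:**
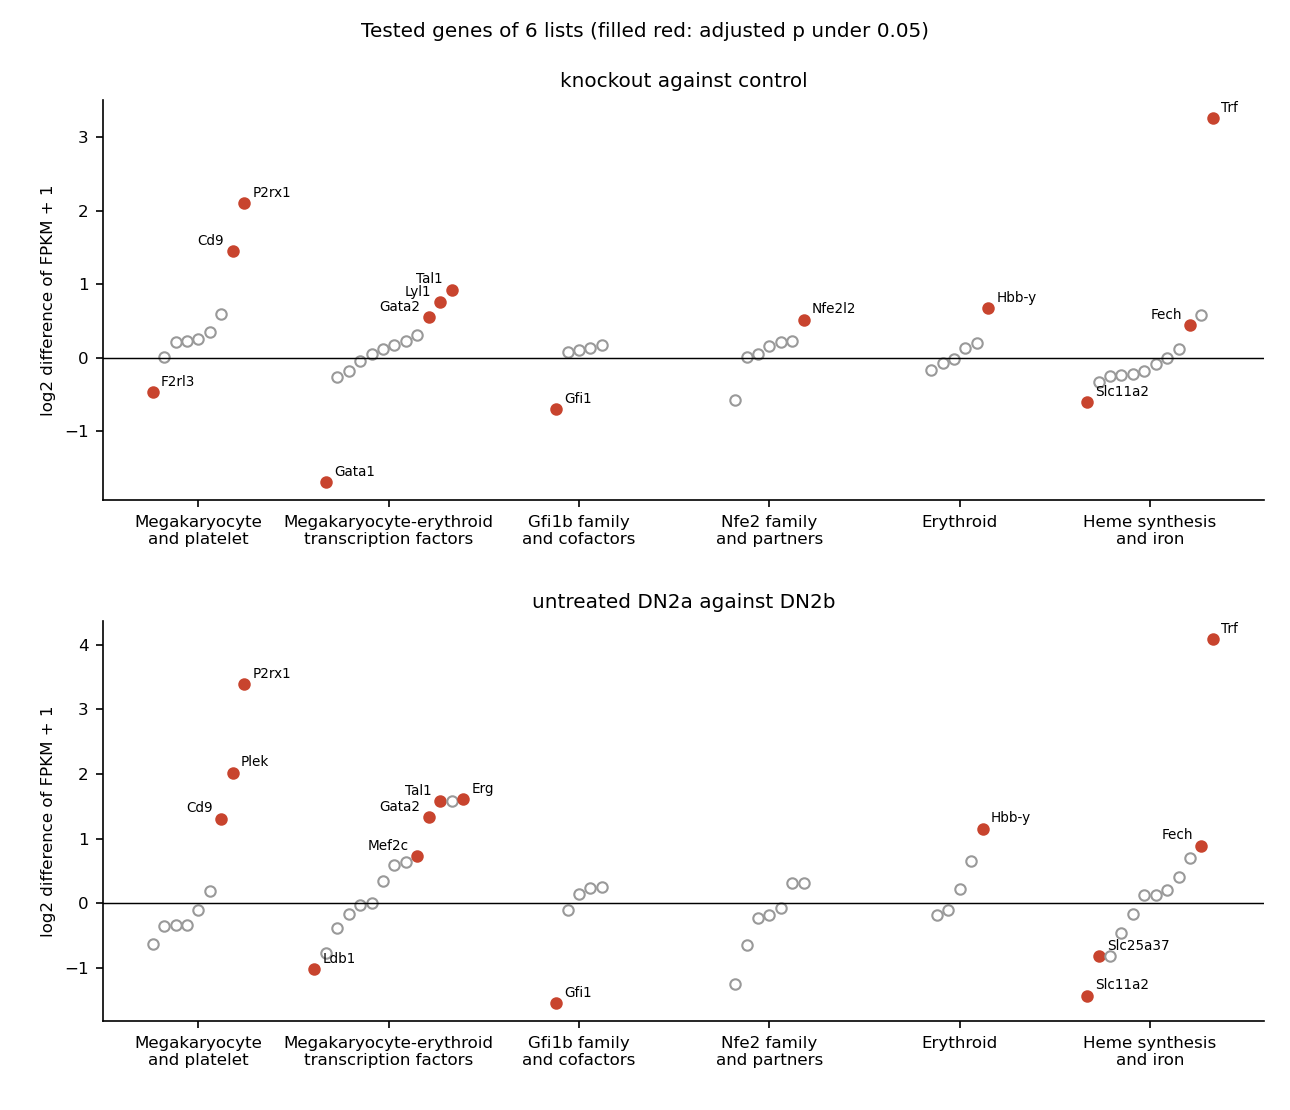
Differences on the log2(FPKM + 1) scale (vertical axes) of the tested genes of 6 related lists, without the 5 genes themselves, for knockout against control and for DN2a against DN2b; points are genes, filled red with a name where called. P2rx1, Cd9, Tal1, Gata2, Hbb-y, Trf and Fech are called higher in both comparisons and Gfi1 and Slc11a2 lower in both, while Gata1 is called lower in knockouts and most genes are not called.

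Markers of other cell types moved along with genotype. The summed level of the innate lymphoid and NK list ran from 616 to 1292 FPKM in knockouts and 59.1 to 343 in controls, and 8 of its 9 tested genes rose. Basophil and mast cell genes summed to 189 to 799 FPKM against 75.6 to 334, and both tested members, Mcpt8 (1.54) and Cpa3 (1.35), rose. Myeloid genes summed to 15.2 to 77.1 against 14.4 to 37.7 FPKM, with 1 of 7 (Emr1) higher. T-lineage genes summed to 414 to 1171 against 1484 to 3152 FPKM, with 8 of 10 lower, both tested B cell genes fell, and 0 of 8 stromal genes were called. The platelet list summed to 69.4 to 157 against 30.4 to 74.5 FPKM, and the erythroid list without the 5 genes to 32.2 to 58.2 against 26.4 to 56.6. The part of these other cell types in the results for the 5 genes was not tested, and in bulk RNA fewer cells of a type and less RNA per cell cannot be told apart.

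In normal cells the same genes were high at DN2a and low at DN2b. 5 of the 5 genes were called higher in DN2a, against 13.5% of the 13364 genes tested called in either direction, 4.23% called higher and 9.23% called lower. The 5 genes were not chosen blind to these data, so their count is a description. The comparison shows the stage difference without any deletion, in 4 and 2 libraries. Their median difference was 4.02, and that of all genes -0.07. In all 5 the groups did not overlap, which with these group sizes held for 18% of all genes in the higher direction.

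Itga2b was at 108, 99.5, 80.7 and 97.0 FPKM in the 4 DN2a libraries and at 1.42 and 0.1 in the 2 DN2b libraries (difference 5.89, SE 0.31, adjusted p = 0.000379). Gfi1b was at 23.0, 16.3, 16.1 and 16.5 FPKM in DN2a and at 0.1 and 0.213 in DN2b (4.02, SE 0.21, adjusted p = 0.000379). Hbb-b2 was at 1331, 1320, 989 and 1268 FPKM in DN2a and at 37.6 and 55.5 in DN2b (4.71, SE 0.22, adjusted p = 0.000293), a 26.4-fold ratio of means. For these 3 genes the stage difference was far larger than the spread within either stage.

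Nfe2 and Hbb-b1 rested on fewer firm values. Nfe2 was at 135, 126, 122 and 120.1 FPKM in DN2a, and the DN2b libraries differed from each other, at 4.90 and 53.9 (2.81, SE 0.74, adjusted p = 0.0479). Hbb-b1 was at 10.1, 4.83, 4.07 and 10.1 FPKM in DN2a and at 1.61 and 0.578 in DN2b (1.94, SE 0.41, adjusted p = 0.03). DN2b replicate 1, the library low in Nfe2, is titled DN3. Without it Nfe2 was 1.20 (adjusted p = 0.0717) and Hbb-b1 2.30 (0.112), neither called, and the count of called genes fell from 1799 to 60, while Itga2b (6.46), Gfi1b and Hbb-b2 (4.43) stayed called. With replicates 1 and 2 of each stage blocked by replicate number, 624 genes were called and Nfe2 was not (2.87, limma adjusted p = 0.0601). The title dates within these blocks match only in part, because the DN2a titles pool dates.

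Related lists moved in part, beside 13.5% of all genes called. Of 9 megakaryocyte and platelet genes, 3 were higher in DN2a and 0 lower (median -0.10), namely P2rx1 (3.39), Plek (2.02) and Cd9 (1.31). Of 14 transcription factors, Erg (1.61), Tal1 (1.58), Gata2 (1.33) and Mef2c (0.73) were higher and Ldb1 (-1.02) was lower. Gfi1 was lower in DN2a (-1.55, 22.0 against 63.8 FPKM), opposite to Gfi1b. Trf (4.09) and Fech (0.89) were higher and Slc11a2 (-1.43) and Slc25a37 (-0.82) lower among 12 heme and iron genes, and Hbb-y (1.15) was the only one called of 5 erythroid genes. Myeloid genes summed to 79.6 to 113 FPKM in DN2a and 15.1 to 30.4 in DN2b, with Prtn3 and Mpo called higher, and T-lineage genes to 242 to 672 and 1689 to 2868. The part of these markers was not tested.

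Knockout cells on OP9-DL1 were set beside normal DN2a cells. The 7 knockout libraries were not stage-matched by title: 1 was titled DN2a, 5 DN2 and 1 DN2b. All 7 came from the latest title year and the 4 DN2a libraries from the earlier years, so genotype cannot be told apart from year here. 3 of the 5 genes were called, all lower in the knockout, against 16.9% of the 12979 genes tested called in either direction, 9.67% called higher and 7.25% called lower. The fit used the 7 knockout libraries with standard IL-7 and the 4 DN2a libraries. Bcl11b itself was 21.6 ± 9.45 FPKM (SD, n = 7) in these knockouts and 8.68 ± 6.88 (n = 4) in DN2a. The difference was 1.67 and not called (limma adjusted p = 0.0703), so listed Bcl11b was not lower in the knockout here. Gfi1b was 8.54 ± 2.85 FPKM (SD, n = 7) in knockouts and 18.0 ± 3.35 (n = 4) in DN2a (-1.03, SE 0.21, adjusted p = 0.00747). Nfe2 was 70.9 ± 14.9 and 126 ± 6.59 (-0.84, SE 0.16, adjusted p = 0.00427), and Hbb-b2 was 467 ± 194 and 1227 ± 161 (-1.48, SE 0.26, adjusted p = 0.00355). None of these 3 genes overlapped between the groups, as held for 12.3% of all genes in either direction. Itga2b was 78.5 ± 26.2 against 96.4 ± 11.5, overlapping, with a difference of -0.35 (95% interval -0.82 to 0.13, adjusted p = 0.287). Hbb-b1 overlapped too (-0.58, interval -1.78 to 0.62).

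Every one of the 7 knockout libraries was below every DN2a library in Gfi1b, Nfe2 and Hbb-b2, and not in Itga2b or Hbb-b1. Among the platelet genes, Cd9 (0.65) and Itgb3 (1.97) were higher in the knockout than in DN2a, and Plek (-1.65) lower. Of 14 transcription factors 5 were lower, including Mef2c (-1.21), Tal1 (-0.78) and Erg (-0.50), and 0 higher. Myeloid markers were lower in 4 of 8. This comparison and the knockout against control comparison share the knockout libraries.

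**Figure D5:**
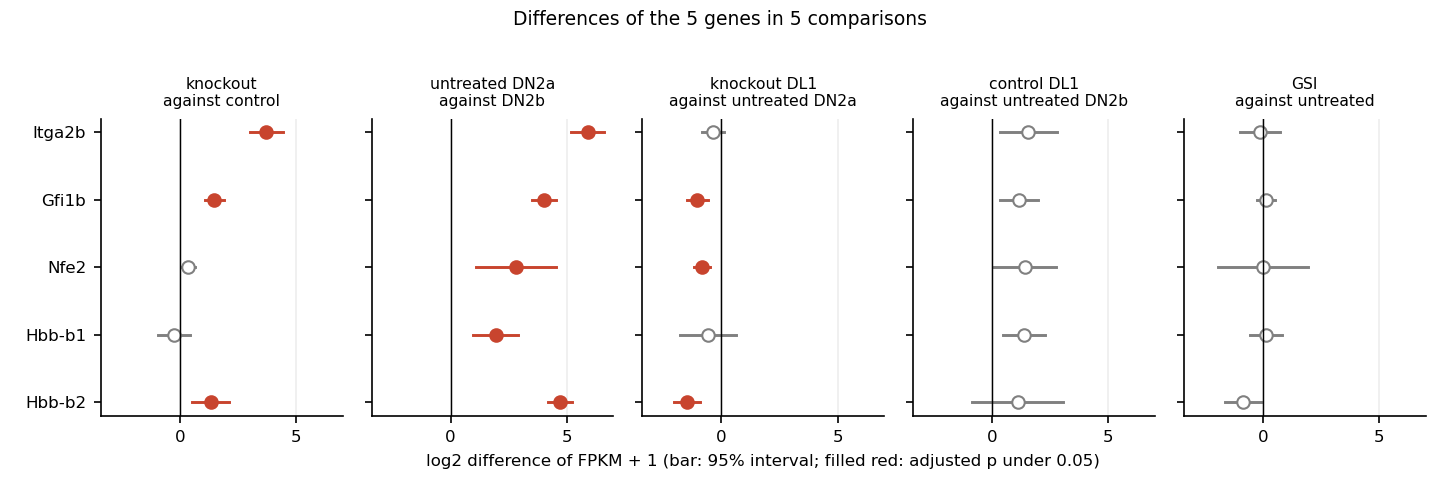
Differences on the log2(FPKM + 1) scale of the 5 genes in 5 comparisons, with 95% intervals as bars; filled red points are called. Itga2b is 3.72 for knockout against control and 5.89 for DN2a against DN2b, and its interval includes 0 for knockout against DN2a.

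Control cells on OP9-DL1 with standard IL-7 (n = 6) were set beside the 2 normal DN2b libraries. All 6 controls came from the latest and both DN2b libraries from the earliest title year, so the groups cannot be told apart from year. 0 of the 5 genes were called, with a background of 0.181% of 13838 genes (25 genes, and 1290 at an unadjusted p under 0.05). All 5 differences were above 0: Itga2b 1.56 (adjusted p = 0.425), Gfi1b 1.15 (0.349), Nfe2 1.42 (0.507), Hbb-b1 1.37 (0.312) and Hbb-b2 1.10 (0.731). Nfe2 depended on which DN2b library was kept: it was -0.19 without replicate 1, and 3.03 and called without replicate 2 (adjusted p = 0.0024).

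The gamma-secretase inhibitor left none of the 5 genes called, as it left 0% of the 12783 genes tested (limma, 297 at an unadjusted p under 0.05). That fit had stage as covariate but not the date pairs, whose deviations correlated at 0.666 in DN2b and 0.73 in DN2a. Each group held 2 libraries, so both pairs of a stage give the same value by construction. With the 4 date pairs as a block, 0 genes were called and 1323 were at an unadjusted p under 0.05. Hbb-b2 was lower in 4 of 4 date pairs: it was at 837 and 1176 FPKM in treated DN2a against 1331 and 1320 in their untreated partners, and at 31.3 and 10.6 in treated DN2b against 37.6 and 55.5. Its difference was -0.84 (95% interval -1.63 to -0.06, adjusted p = 1). The differences of Itga2b (-0.12), Gfi1b (0.14), Nfe2 (0.01) and Hbb-b1 (0.13) were small beside the stage difference. Itga2b was 74.0 and 77.5 FPKM in treated DN2a, below the 2 partners at 108 and 99.5.

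Whether the genotype difference itself changed with culture conditions was tested by interaction terms. Standard IL-7 knockouts and controls on OP9-DL1 all came from the latest title year, and those on OP9-DL4 from the middle year. Reduced IL-7 libraries came from the earliest year, except OP9-DL4 knockout replicate 5 from the middle year. The IL-7 interaction therefore cannot be told apart from title year, nor can the stroma interaction outside the reduced IL-7 libraries. For IL-7, 0 of the 5 genes were called, with 0.701% of 14271 genes called; Itga2b had an interaction of 1.77 (adjusted p = 0.306), and Kit, the marker used in the sort, was called (1.73, adjusted p = 0.0455). For stroma, 0 of the 5 genes and 0% of all genes were called (338 at an unadjusted p under 0.05). The stroma interactions of Hbb-b2 (-1.57), Itga2b (-1.21) and Gfi1b (-1.01) were all in the direction of a smaller knockout difference on OP9-DL4, and were not called. For day 12 against days 9 to 10, again 0 of the 5 genes and 0% of all genes were called (312 unadjusted), with 1.23 for Itga2b, 1.22 for Hbb-b2 and -0.47 for Gfi1b.

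Single libraries extended the range of cells without a test. In the library pair harvested on day 12, 36 h after transduction with an empty vector, and titled DN2b on both sides, Itga2b was at 46.1 FPKM in knockout and 2.63 in control cells, Gfi1b at 7.77 and 0.592, and Hbb-b2 at 171 and 44.3. These values repeat the order of the main groups. The pair shares title date, day, stroma and titled stage with the main date pair titled DN2b on both sides. Whether both pairs came from the same cultures is not given in the labels. Knockout cells given a vector with the Bcl11b isoform of exons 1-2-4 had Bcl11b at 105 FPKM, against 24.7 with the empty vector. In that library Itga2b was 28.0 against 46.1 FPKM, Gfi1b 3.05 against 7.77, Nfe2 33.9 against 41.5, Hbb-b1 3.43 against 5.07 and Hbb-b2 129 against 171. All 5 genes were listed lower with the Bcl11b vector, by 0.28 (Nfe2) to 1.11 (Gfi1b) on the log2(FPKM + 1) scale, in 1 library each.

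Adult bone marrow precursors carrying CreERT2, treated with tamoxifen and grown on OP9-DL4, gave 1 floxed library labelled knockout and 1 wild-type library, both titled DN2. Bcl11b was 45.0 FPKM in the library labelled knockout and 44.9 in the wild type, so listed Bcl11b was not lower there. Whether the gene was deleted in that library was not tested. Itga2b was 39.8 FPKM in the floxed and 22.7 in the wild-type library, while Gfi1b (5.80 and 7.23), Nfe2 (61.0 and 81.8), Hbb-b1 (0.614 and 2.47) and Hbb-b2 (167 and 218) were listed lower in the floxed library. Thymocytes taken from animals after LckCre deletion, which acts in T-lineage cells, were at DN2 and their control at DN3, so stage differed as well. Itga2b was 19.5 FPKM in that knockout and 0.669 in its control, Gfi1b 3.89 and 0.663, Nfe2 24.3 and 4.5, and Hbb-b2 96.8 and 0.1. The control had the highest Hbb-b1 of all 47 libraries, 21.7 FPKM, and also the highest Hba-a1 (15.5) and Hba-a2 (29.9), while its Hbb-b2 was at the lowest value of the table. It was the only 1 of the 47 libraries with Hbb-b1 above Hbb-b2.

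Thymic DN3 cells had little Itga2b. Fresh DN3 cells with CreERT2 and fresh floxed, undeleted cells were at 0.158 and 0.166 FPKM for Itga2b, 2.30 and 0.910 for Gfi1b, 30.5 and 22.0 for Nfe2 and 7.37 and 7.15 for Hbb-b2. DN3 cells cultured with 4-OH tamoxifen (100 nM) were at 10.9 FPKM of Itga2b in the control of day 3, 0.1 in the control of day 4 and 3.25 in the knockout of day 4. Gfi1b was 2.54, 0.936 and 0.472 in these 3 libraries, Nfe2 17.8, 11 and 58.1, and Hbb-b2 68.2, 6.89 and 14.7. The 2 controls differed by more than control and knockout for Itga2b and Hbb-b2, so no order of genotypes could be read for them.

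Over all 19 groups, the mean of Itga2b was highest in DN2a (96.4 FPKM), followed by GSI-treated DN2a (75.8) and OP9-DL1 knockouts (74.7), whose ranges overlapped, and was lowest in fresh DN3 cells. Gfi1b was highest in GSI-treated DN2a (20.7) and DN2a (18.0), overlapping each other and above the OP9-DL1 knockouts (8.11). Nfe2 was highest in GSI-treated DN2a (144), then DN2a (126), then the bone marrow control (81.8), and lowest in the LckCre control (4.5). Hbb-b2 was highest in DN2a (1227) and overlapped GSI-treated DN2a (1006), whose range also met that of OP9-DL1 knockouts (439). Hbb-b1 had another order, with both LckCre thymic libraries first.

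The 47 libraries differ in stage and genotype and all went through the authors' batch adjustment, so correlations across them include these differences. Across them, Itga2b and Gfi1b had a Pearson r of 0.87, Itga2b and Hbb-b2 0.82, Gfi1b and Hbb-b2 0.81, and Nfe2 and Hbb-b2 0.77. Gfi1b and Nfe2 had 0.73 and Itga2b and Nfe2 0.62. Hbb-b1 had 0.23 to 0.32 against the other 4 genes over all 47 libraries. Among 8952 genes at 5 FPKM or more in at least 4 libraries, those most alike to Itga2b were Pglyrp1 (0.93), Fgf3 (0.93), Ttyh2 (0.92), Fcgr3 (0.91) and Tyrobp (0.89). For Gfi1b they were Mycn (0.91), Tal1, Fam171a2 and Ncf1 (0.87 each) and Ttyh2 (0.86). For Nfe2 they were Cst7 (0.89), Mapkapk2 (0.88), Alox5ap, Emilin2 and Gna15 (0.87 each). For Hbb-b2 they were Emilin2 and Siglec5 (0.92 each), Lst1 (0.89), P2ry14 and Ffar2 (0.87 each). Hbb-b1 was most alike to Hba-a2 (0.65), followed by Tfpi (0.53), Cd8a (0.52), Asnsd1 and Cd4 (0.50 each). Hba-a1, too low to be among the 8952 genes, had 0.68 with Hbb-b1, and 0.61 without the 2 LckCre libraries. The likeness of Hbb-b1 to Hba-a2, whose values are mostly at 0.1 or repeated between libraries, was 0.57 without the 2 LckCre libraries. That to Hbb-b2 was then also 0.57 in place of 0.30, so the low value for the beta globin pair rests on those libraries.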

How the data were processed

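RNA was amplified from oligo-dT selected material, random primed and sequenced, and no step that marks strand is given in the labels. The authors deposited 1 table of FPKM values merged over libraries and adjusted between batches with ComBat; reads were mapped to mm9 per the submitters' processing notes, and which batches and covariates ComBat used is not given in the sources used here. 16 columns that match no labelled sample were not used. Differences were fitted on log2(FPKM + 1) with limma 3.58.1 (R 4.3.3; trend, empirical Bayes) over all genes that reached 1 FPKM in no fewer libraries than the smaller group holds, with Benjamini-Hochberg adjustment, and were tested on simulated data. With no counts, depth per library is unknown. Named genes were the 5 genes, up to 4 called genes of each related list and the 5 most alike genes of each. One gene of the megakaryocyte and platelet list is not reported here. The members and lists were chosen with earlier results of these data known. Replicates were paired by title dates shared in the labels, except that the DN2a against DN2b block used replicate numbers. Paired libraries' deviations correlated at -0.0554 to 0.528 for the 9 knockout pairs. For the 4 GSI pairs they correlated at 0.666 in DN2b and 0.73 in DN2a, the same for both pairs of a stage by construction. Alternatives were another pseudocount (0.1), no filter, quantile normalization, covariates, blocks, subsets and leaving out each library; summing Hbb-b1 and Hbb-b2 was chosen after seeing the data.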

Additional observations from a re-analysis of the deposited data

Results flagged for a closer look

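In 28 sets of 1 gene in 1 group of 4 to 10 libraries, 6 held a library far from the others, where chance alone gives about 1 in 20. Itga2b was 13.14 FPKM in OP9-DL1 control replicate 4 (the next control 5.64) and 73.18 in OP9-DL4 knockout replicate 2 (the next 43.0). Gfi1b was 22.98 FPKM in DN2a replicate 1, above 16.5. Hbb-b2 was 855.5 FPKM in OP9-DL1 knockout replicate 3, above 498, and 136.2 in OP9-DL4 knockout replicate 3, below 189. Kit was 83.56 FPKM in OP9-DL4 knockout replicate 1, above 55.1.

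Some effects went opposite ways between groups, and for these the difference was not tested. Gfi1b was lower in the bone marrow library labelled knockout (-0.2741), in which Bcl11b was 45.0 FPKM against 44.9 in its control, and lower in the knockout in cultured thymic DN3 cells of day 4 (-0.3953), while 9 of 9 fetal liver date pairs were higher. Nfe2 was lower with GSI in both DN2b pairs (median -0.134) and higher in both DN2a pairs. The genotype difference of Kit was larger with reduced IL-7 by a test of the interaction (1.731, limma adjusted p = 0.0455). That interaction cannot be told apart from title year.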

How the results depend on the processing

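Itga2b stayed called, in the same direction, under every alternative run for knockout against control and DN2a against DN2b. For knockout against control, 2142 genes were called; the count was 1282 with the replicate block of 9 date pairs (659 higher, 623 lower), 1396 with standard and 430 with reduced IL-7, 988 on OP9-DL1 and 451 on OP9-DL4, 475, 270 and 778 in the earliest, middle and latest title year, and 131 in the 3 DN2-titled pairs. The block changed no call of the 5 genes there or with GSI. Gfi1b was not called with reduced IL-7 (1.03), on OP9-DL4 (0.75), in the earliest (1.15, adjusted p = 0.0708) and middle year (0.83, 0.242) or in the DN2-titled pairs (1.54). Hbb-b2 was not called with standard (1.5) or reduced IL-7 (0.93, 0.0777), on OP9-DL4 (0.32), in the earliest year (0.89, 0.145), in the DN2-titled pairs (1.43) or with cultures averaged (1.29), and turned sign in the middle year (-0.20). Nfe2 turned sign on OP9-DL4 (-0.0109) and in the middle year (-0.41), and Hbb-b1 with reduced IL-7 (0.0088). These subsets hold fewer libraries.

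Quantile normalization moved the knockout against control calls from 1242 higher and 900 lower to 1142 and 1209. Leaving out each library gave 1830 to 2246 calls, Nfe2 0.27 to 0.46 and Hbb-b2 0.99 to 1.63, the lowest without OP9-DL1 control replicate 7.

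For DN2a against DN2b, the count of 1799 became 1065 with a pseudocount of 0.1 and 4891 with the GSI libraries added. It was 624 (179 higher, 445 lower) with replicates 1 and 2 of each stage as blocks, whose title dates match only in part. Quantile normalization moved the median of all genes from -0.07 to 0.05 and the calls from 565 higher and 1234 lower to 662 and 567. Nfe2 was not called with the pseudocount of 0.1 (2.94, adjusted p = 0.0653), with no filter (2.81, 0.0609), with quantile normalization (2.81, 0.0683), with the block (2.87) or without the DN3-titled library (1.20), which also ended the call of Hbb-b1 (2.30). Leaving out each library gave 60 to 1406 calls, Nfe2 1.20 to 4.42 (called 1 time in 6) and Hbb-b1 1.57 to 2.30 (3 in 6).

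For knockout against DN2a, 1160 genes were called without the DN2a library of day 4.5, and 1160 to 2404 over single libraries. Quantile normalization moved the calls of that comparison from 1255 higher and 941 lower to 1158 and 1250. For control against DN2b the range was 16 to 104 calls and Nfe2 ran from -0.19 to 3.03. For GSI, Nfe2 was -0.0036 with a pseudocount of 0.1, and over single libraries Nfe2 ran from -0.65 to 0.72, Itga2b from -0.50 to 0.13 and Hbb-b1 from -0.0903 to 0.40. The IL-7 interaction gave 59 calls with quantile normalization and 40 to 202 over single libraries, with Gfi1b from -0.50 to 0.11. The stroma interaction gave 0 to 4 calls and the day interaction 0 to 2, with Nfe2 from -0.15 to 0.31 and Hbb-b2 from -0.0023 to 1.92. Where not shown otherwise, the cause was not tested.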
